A study of Mus musculus with 2 samples.

Results

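Collagen chains and the enzymes that process them were followed in whole lung of Rosa26-Foxm1 and wild-type (WT) mice after a chemical tumour protocol. The members are all genes on the array whose symbol names a collagen chain (Col followed by its type and chain), a lysyl hydroxylase (Plod1 to Plod3) or a prolyl 4-hydroxylase alpha subunit (P4ha), together with P4hb, Serpinh1, Pcolce and Bmp1. They number 43 of 13840 named genes, 34 of them collagen chains and 9 processing genes. Rosa26-Foxm1 mice carry a Foxm1 transgene under Rosa26 regulatory sequence, which is active in most tissues, and Foxm1 is a forkhead transcription factor of cell division. Mice of both genotypes were injected into the peritoneum with 15 µg/g of the carcinogen 3-methylcholanthrene and then, over 6 weekly injections, with the lung tumour promoter butylated hydroxytoluene, starting at 150 µg/g and going on at 200 µg/g. Lungs are labelled as 12 weeks after the combined treatment with carcinogen and promoter. Each genotype was measured on a single array with RNA pooled from the left lobes of 3 mice. The WT mice are labelled FVB/N males, no sex or strain label was available for the Rosa26-Foxm1 mice, and age is given for neither genotype. No group without the carcinogen protocol was analysed here, so all values are from treated lung.

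Collagens are built from 3 alpha chains wound into a triple helix. Fibrillar types give tissue its tensile strength, whereas type IV chains form the sheet-like network of basement membranes, which in the alveolus lies between epithelium and capillary. Inside the endoplasmic reticulum the chains are hydroxylated on proline and lysine and guarded by a dedicated chaperone, and after secretion the ends of fibrillar procollagens are cut away and the fibrils are crosslinked. In lung, fibroblasts and smooth muscle cells are the main source of fibrillar chains, while endothelial and epithelial cells also make type IV chains.

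With 1 array per genotype, replicate spread could not be measured and genotypes could not be tested against each other. Values are probe intensities, quantile normalised between the arrays and in arbitrary units, and a log2 difference is Rosa26-Foxm1 minus WT. Intensities below the median of an array (1.00, the floor) were set to it, and genes that exceeded the floor on 1 array or both are called measured. The only error available is the probe SD, the SD of a single probe's log2 difference, which was 0.31 over 317 genes with 2 measured probes (0.38 for those with a mean intensity up to 10.5 and 0.23 for the brighter ones). It leaves out differences between mice. Foxm1 itself was at 1.23 in Rosa26-Foxm1 and 1.13 in WT lung, close to the floor on both arrays, and it is not known here whether its probe detects the transgene. Lung markers were bright, with the surfactant gene Sftpc at 859 in Rosa26-Foxm1 and 1228 in WT lung.

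Collagen genes had a slightly lower median in Rosa26-Foxm1 lung, and a few basement membrane and transmembrane chains were at least 1.5-fold lower. Of the 43 members, 30 were measured, 28 of them on both arrays. The log2 difference was below 0 in 28 of the 30, where 56.0% of all 9516 measured genes were below 0. It was above 0 in Col7a1 and Col15a1. The median over the 30 was -0.23, beside -0.06 over all measured genes. At least 1.5-fold lower were 5 members, Col4a1, Col4a2, Col4a3, Col13a1 and Col23a1, or 16.7% of those measured, where 8.45% of all measured genes were as low. None was at least 1.5-fold higher, a size that 7.08% of measured genes reached. Past 2-fold there was 1 member, Col4a3, on the lower side (1.51% of all measured genes) and none on the higher side (1.98%). Past that size none of 30 was left on the lower side after a correction for gene length, and none of 23 with a 75th percentile floor. With no floor 4 of 43 were lower and 1 higher, counts that include genes near background. The share of all genes past 2-fold was not counted in these settings. Past 1.5-fold with no floor it was 14.4% lower and 13.2% higher. Col4a3 and Col17a1 count as measured through the WT array alone, which fixes their direction. Over the 28 members above the floor on both arrays, 26 were below 0 and 4 were at least 1.5-fold lower, where 56.7% and 7.69% of the 8586 genes of that kind were. The counts depend on the scaling. With median scaling, as with the deposited values, Col3a1 and P4hb were above 0 and 26 of the 30 members were below 0. After the gene length correction 23 of the 30 were below 0, beside 56.5% of all measured genes. At least 1.5-fold lower were then 2 of the 30, beside 7.78%. With loess scaling 3 of the 30 were as low, beside 7.65%. In whole lung, fewer cells of a type and less RNA per cell cannot be told apart.

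**Figure D1:**
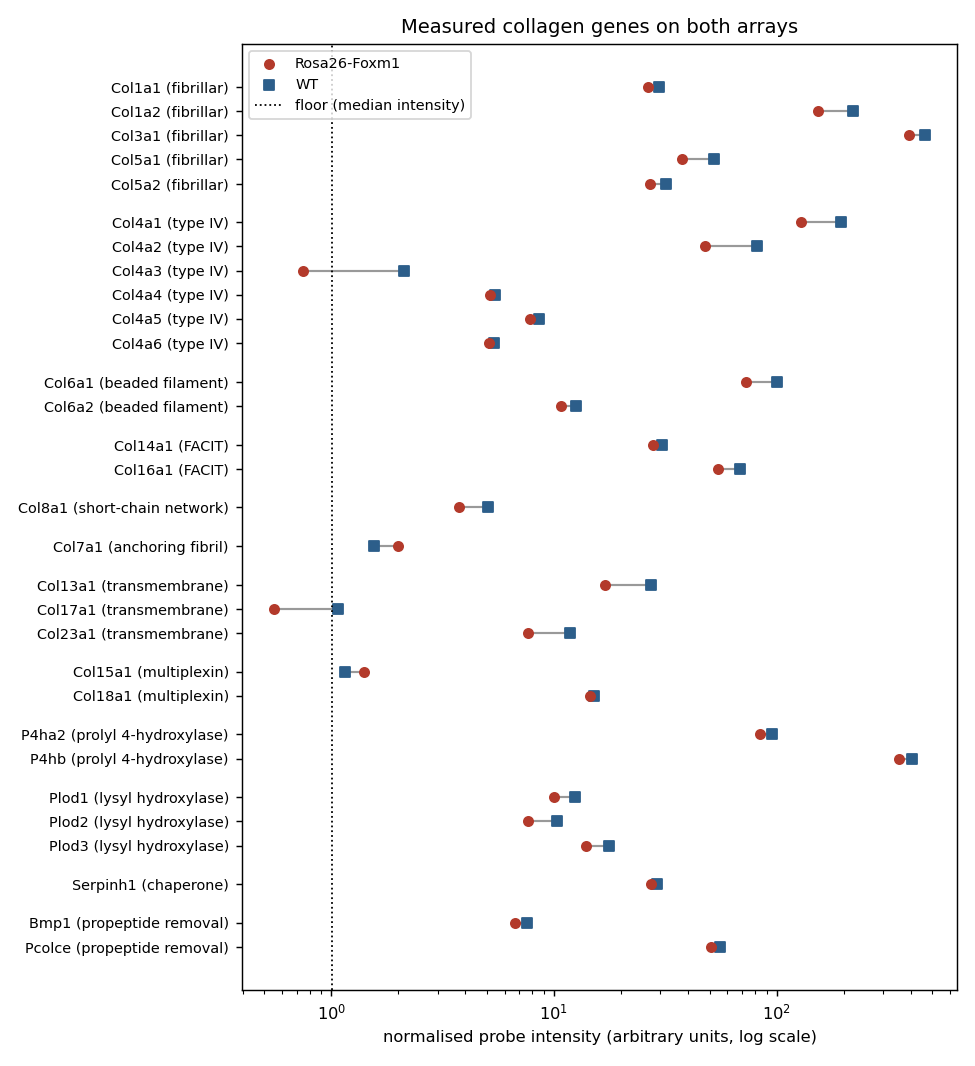
Normalised intensity of each of the 30 measured members (log axis) in Rosa26-Foxm1 lung (circles) and WT lung (squares), 1 array each, with a line joining the 2 values and a dotted line at the floor of 1.00. Rosa26-Foxm1 lies left of WT in 28 members and right of it in Col7a1 and Col15a1. Wide gaps are those of Col4a1, Col4a2, Col4a3, Col13a1, Col23a1 and Col17a1, the last drawn mostly below the floor.

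The median was lowest among the brighter members. When the genes above the floor on both arrays were divided into 4 equal classes of mean level, the brightest class held 10 members, all below 0, with a median of -0.40 beside -0.08 over the 2147 genes of that class. In the class below it, 9 members were all below 0, with a median of -0.22 beside -0.06. The next class held 7 members, all below 0, with a median of -0.18 beside -0.05, and the dimmest class held Col7a1 and Col15a1, both above 0. With median scaling the medians of the members in these classes, from brightest to dimmest, were -0.31, -0.20, -0.20 and 0.29, beside 0.01, -0.04, -0.08 and -0.09 over all genes of each class. The classes were made from the same 2 arrays, and the genes in them are not replicates.

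Among the 6 type IV chains, all measured and all below 0 (under every scaling, though not after a correction for gene length), some chains differed much more than others. The ubiquitous chains Col4a1 and Col4a2, which join as the α1α1α2 trimer of most basement membranes, were lower together. Col4a1 had an intensity of 128 in Rosa26-Foxm1 and 194 in WT lung, a log2 difference of -0.60 (1.52-fold lower), and only 7.81% of measured genes ranked at or below it. Its difference was -0.46 with median scaling and -0.56 with loess scaling, both short of 1.5-fold. Col4a2 had 47.4 in Rosa26-Foxm1 and 81.2 in WT lung, a difference of -0.78 (1.71-fold lower). It stayed past 1.5-fold with median scaling and the deposited values (both -0.70), loess scaling (-0.74) and the gene length correction (-0.62). The other floors and probe choices could not change it, since it is bright and has 1 probe. The differences of Col4a1 and Col4a2 both exceeded the probe SD. These 2 chains differed from each other by 0.17, less than the error of a difference between 2 probes (0.44). Endothelial markers were lower as well, with a median of -0.82 over 9 genes (-0.55 with median scaling), and their part in these values was not tested.

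Col4a3, Col4a4 and Col4a5 encode the chains of the α3α4α5 trimer, which in lung is found in the alveolar basement membrane. Col4a3 was below the floor in Rosa26-Foxm1 lung and at 2.13 in WT lung, at least 2.12-fold lower, with deposited intensities of 0.762 in Rosa26-Foxm1 and 2.17 in WT lung. Both values are dim, and the gene rests on 1 probe. Col4a4 had 5.18 in Rosa26-Foxm1 and 5.41 in WT lung (-0.06), and Col4a5 had 7.80 in Rosa26-Foxm1 and 8.54 in WT lung (-0.13). Col4a6, which pairs with Col4a5 in the smooth muscle basement membrane, had 5.13 in Rosa26-Foxm1 and 5.36 in WT lung (-0.06). These 3 lay within 1 probe SD of 0, and after a correction for gene length they were above 0, at 0.10 for Col4a4, 0.04 for Col4a5 and 0.13 for Col4a6. The value of Col4a3 is a bound set by the floor, and only the WT array made it count as measured, so no gap to its partners is given.

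Type IV genes lie in the genome as neighbouring head-to-head pairs, Col4a1 with Col4a2 on chromosome 8, Col4a3 with Col4a4 on chromosome 1 and Col4a5 with Col4a6 on chromosome X. Promoter windows of 5 of these genes are shown, those of Col4a1 and Col4a2 because this pair had like differences and the others beside them; Col4a3 is named only. Each window runs from 250 bases before to 50 bases after the RefSeq start site (assembly GRCm38.p6), 5′ to 3′ on the gene's own strand. The windows are chr8:11312777-11313076 (minus strand) for Col4a1, chr8:11312555-11312854 (plus) for Col4a2, chr1:82586800-82587099 (minus) for Col4a4, chrX:141475169-141475468 (plus) for Col4a5 and chrX:141474027-141474326 (minus) for Col4a6. Capitals mark matches on either strand to CCAAT, the CCAAT box, and to GGGCGG, the GC box. TATAAA, the TATA box, and TAAACA, a core of forkhead motifs, were searched likewise and had no match in these 5 windows.
Col4a1: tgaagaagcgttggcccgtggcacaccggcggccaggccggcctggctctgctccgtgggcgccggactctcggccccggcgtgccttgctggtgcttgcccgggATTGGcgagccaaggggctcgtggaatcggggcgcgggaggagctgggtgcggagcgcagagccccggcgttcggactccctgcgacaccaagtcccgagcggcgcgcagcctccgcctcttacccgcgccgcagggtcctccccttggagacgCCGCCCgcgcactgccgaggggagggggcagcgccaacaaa
Col4a2: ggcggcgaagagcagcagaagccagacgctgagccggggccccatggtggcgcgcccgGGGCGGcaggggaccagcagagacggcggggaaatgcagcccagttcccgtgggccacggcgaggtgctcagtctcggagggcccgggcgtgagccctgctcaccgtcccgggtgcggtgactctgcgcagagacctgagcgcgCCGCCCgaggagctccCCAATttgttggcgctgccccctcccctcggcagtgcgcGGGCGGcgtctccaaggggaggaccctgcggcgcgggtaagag
Col4a4: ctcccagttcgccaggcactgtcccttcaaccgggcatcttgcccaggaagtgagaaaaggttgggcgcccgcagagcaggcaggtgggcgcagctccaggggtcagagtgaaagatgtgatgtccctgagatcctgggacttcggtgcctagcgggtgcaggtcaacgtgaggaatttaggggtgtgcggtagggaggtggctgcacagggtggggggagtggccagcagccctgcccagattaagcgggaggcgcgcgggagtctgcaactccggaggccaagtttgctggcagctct
Col4a5: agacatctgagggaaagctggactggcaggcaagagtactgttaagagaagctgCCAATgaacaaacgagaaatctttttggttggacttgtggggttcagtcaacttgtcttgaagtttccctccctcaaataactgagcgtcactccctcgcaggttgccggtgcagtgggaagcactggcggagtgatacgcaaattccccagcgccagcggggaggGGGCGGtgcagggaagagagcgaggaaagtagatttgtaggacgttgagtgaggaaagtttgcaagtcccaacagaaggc
Col4a6: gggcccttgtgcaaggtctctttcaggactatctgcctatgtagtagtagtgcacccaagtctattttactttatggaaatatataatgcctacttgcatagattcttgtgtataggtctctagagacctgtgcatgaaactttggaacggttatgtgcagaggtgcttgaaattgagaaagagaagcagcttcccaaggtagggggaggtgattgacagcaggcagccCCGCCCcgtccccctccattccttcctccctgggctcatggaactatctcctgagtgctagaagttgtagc

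The Col4a1 and Col4a2 windows share 78 bases, read on opposite strands, and their start sites lie 21 bases apart. The start sites of Col4a5 and Col4a6 lie 1343 bases apart, and their windows share none. Col4a1 and Col4a2 hold a CCAAT box each, first base at -145 and -32 from the start, and the GC box at 10 bases into Col4a1 and at 8 into Col4a2 is the same site in the shared stretch. Col4a2 holds further GC boxes at -192 and -48. Col4a5 has a CCAAT box at -196 and a GC box at -30, Col4a6 a GC box at -21, and the Col4a4 window holds neither motif. Over the 34 members with a promoter in the table, 14 held CCAAT, 24 GGGCGG, 6 TATAAA and 4 TAAACA. In the promoters of all 27025 genes the shares were 41.1%, 38.2%, 15.7% and 15.1% in that order. The 4 members with TAAACA were Col3a1, Col6a1, Col11a2 and Col13a1. No match overlapped another in the windows shown, and a match is a description of the letters only.

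The fibrillar chains, the building blocks of collagen fibrils, were lower by less than 1.5-fold. All 5 measured fibrillar genes were below 0, Col3a1 only after quantile or loess scaling, with a median of -0.24, and none of them passed 1.5-fold. Col1a1 and Col1a2 encode the chains of type I collagen. Col1a1 had 26.4 in Rosa26-Foxm1 and 29.6 in WT lung (-0.16), and Col1a2 had 153 in Rosa26-Foxm1 and 221 in WT lung (-0.53, or 1.44-fold lower). The partners differed by 0.36 from each other, below the error of 0.44 from all genes and above the 0.33 from the brighter genes. Col1a2 was at -0.36 with median scaling and at -0.47 with loess scaling.

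Col3a1, the chain of type III collagen in distensible tissue, had 392 in Rosa26-Foxm1 and 463 in WT lung (-0.24). Its deposited intensities ran the other way, 427 in Rosa26-Foxm1 and 417 in WT lung, so its direction rests on the scaling of the brightest probes. Type V collagen nucleates type I fibrils and sets their width. Its chain Col5a1 had 37.4 in Rosa26-Foxm1 and 52.1 in WT lung (-0.48), and Col5a2, the neighbour of Col3a1 in the genome, had 26.9 in Rosa26-Foxm1 and 31.8 in WT lung (-0.24). Of the fibrillar genes, Col1a2 and Col5a1 exceeded the probe SD of 0.31, and all but Col1a1 exceeded the 0.23 of the brighter genes.

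Set side by side, the median of the fibrillar genes was above that of the type IV genes by 0.12 on the log2 scale (-0.24 and -0.37). That ordering was not stable. The type IV median includes Col4a3, which counts as measured through the WT array alone. Without Col4a3 the middle value of the type IV genes was that of Col4a5 (-0.13), above the fibrillar median. With the multiplexins Col15a1 and Col18a1 counted as basement membrane collagens, the median of the basement membrane chains was -0.10 and the fibrillar median was 0.14 below it. Under quantile normalisation the 3 lowest of the 11 genes were type IV, and the 3 nearest to 0 were type IV too, with all 5 fibrillar genes between them.

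**Figure D2:**
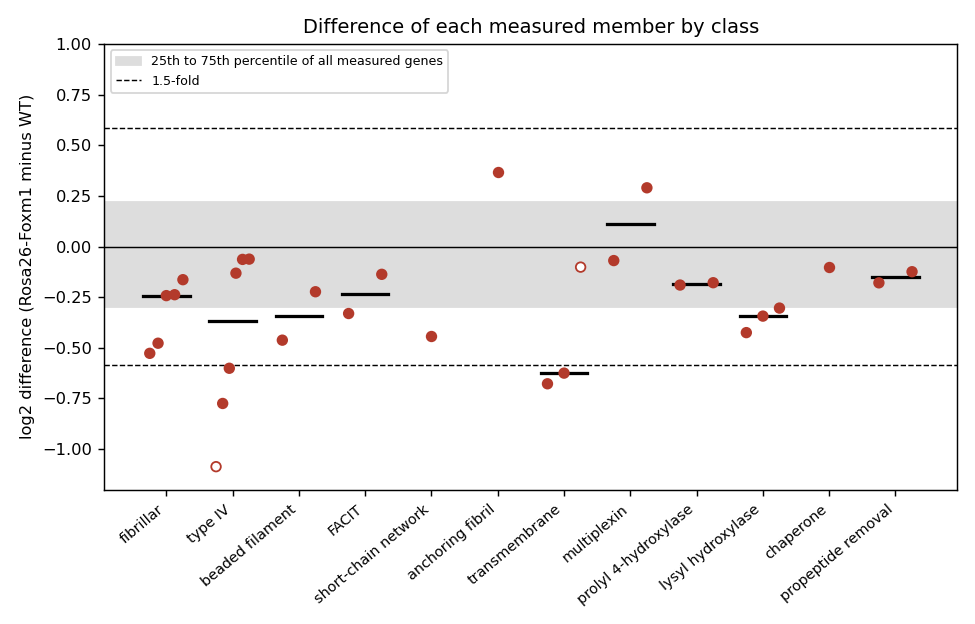
Log2 difference (Rosa26-Foxm1 minus WT, vertical axis) of each measured member by class, with open circles for genes below the floor on 1 array, bars for class medians, dashed lines at 1.5-fold and a grey band from the 25th to the 75th percentile of all measured genes (-0.30 to 0.22). Type IV chains span the widest range, -1.09 to -0.06, around the fibrillar chains at -0.53 to -0.16.

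**Figure D3:**
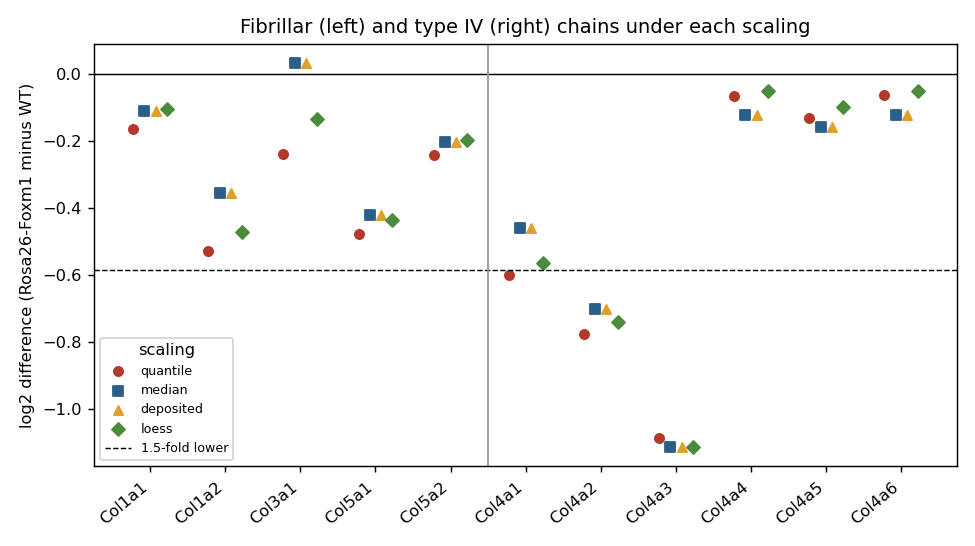
Log2 difference (vertical axis) of the 5 fibrillar and 6 type IV genes under 4 scalings of the same 2 arrays (quantile, median, deposited values and loess), with a dashed line at 1.5-fold lower. Col4a2 and Col4a3 lie below the line under all 4, Col4a1 under quantile scaling alone, and Col3a1 lies above 0 under median scaling and in the deposited values.

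Transmembrane collagens, which sit in the plasma membrane and are shed from it, gave the other chains past 1.5-fold. Col13a1, a collagen of cell-matrix junctions, had 16.98 in Rosa26-Foxm1 and 27.2 in WT lung (-0.68, or 1.60-fold lower). Col23a1 had 7.64 in Rosa26-Foxm1 and 11.8 in WT lung (-0.63, or 1.54-fold lower). It is the only member with a second probe, which was below the floor on both arrays (0.635 in Rosa26-Foxm1 and 0.620 in WT lung) and so gave no difference. Col23a1 was at -0.58 with loess scaling, just short of 1.5-fold, and after the gene length correction Col13a1 was at -0.52 and Col23a1 at -0.44. Col17a1, the hemidesmosomal collagen of basal epithelial cells, was below the floor in Rosa26-Foxm1 lung and at 1.08 in WT lung, at least 1.07-fold lower. Col25a1 was below the floor on both arrays.

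Type VI collagen forms beaded microfilaments around cells. Col6a1 had 72.8 in Rosa26-Foxm1 and 100.3 in WT lung (-0.46), above 1 probe SD, and Col6a2, its neighbour in the genome and its partner in the trimer, had 10.8 in Rosa26-Foxm1 and 12.6 in WT lung (-0.22). Of the fibril-associated (FACIT) chains, which decorate the surface of fibrils, Col16a1 had 54.4 in Rosa26-Foxm1 and 68.4 in WT lung (-0.33), and Col14a1 had 27.7 in Rosa26-Foxm1 and 30.5 in WT lung (-0.14). Col8a1, a short-chain collagen of vessel walls, had 3.74 in Rosa26-Foxm1 and 5.07 in WT lung (-0.44). None of these passed 1.5-fold, and Col14a1 was at 0.04 after the gene length correction.

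The members above 0 were dim. Col7a1, the anchoring fibril chain beneath epithelia, had 1.999 in Rosa26-Foxm1 and 1.55 in WT lung (0.37), and Col15a1, a multiplexin of vascular and muscle basement membranes, had 1.41 in Rosa26-Foxm1 and 1.15 in WT lung (0.29). Both stayed above 0 in the 8 alternative settings in which they were measured, and neither passed 1.5-fold. The lower floors and probe choices among these settings could not change them. Col18a1, the multiplexin whose C-terminal fragment is endostatin, had 14.5 in Rosa26-Foxm1 and 15.2 in WT lung (-0.07, and 0.08 after the gene length correction).

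Genes that fold, hydroxylate and trim procollagen differed by less than 1.5-fold. All 8 measured genes were below 0, P4hb only after quantile or loess scaling, between -0.43 and -0.10 with a median of -0.18. The lysyl hydroxylases, whose products carry sugars and crosslinks, differed most. Plod2, which hydroxylates the telopeptides used in crosslinks, had 7.68 in Rosa26-Foxm1 and 10.3 in WT lung (-0.43). Plod3, which also transfers glucose onto collagen, had 13.9 in Rosa26-Foxm1 and 17.7 in WT lung (-0.34), and Plod1, which acts on the helix, had 10.02 in Rosa26-Foxm1 and 12.4 in WT lung (-0.30). Plod2 and Plod3 exceeded the probe SD of 0.31, Plod1 the 0.23 of the brighter genes, and the other processing genes neither.

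Prolyl 4-hydroxylase makes the hydroxyproline that keeps the helix stable at body temperature. Its alpha subunit P4ha2 had 83.9 in Rosa26-Foxm1 and 94.98 in WT lung (-0.18). Its beta subunit P4hb, the protein disulphide isomerase, had 355 in Rosa26-Foxm1 and 405 in WT lung (-0.19), with deposited intensities of 384 in Rosa26-Foxm1 and 366 in WT lung. Like Col3a1, P4hb was thus above 0 before quantile normalisation. Serpinh1, the collagen chaperone HSP47, had 27.1 in Rosa26-Foxm1 and 29.1 in WT lung (-0.10). Pcolce, which enhances removal of the C-propeptide, had 50.8 in Rosa26-Foxm1 and 55.4 in WT lung (-0.12), and Bmp1, the protease that removes it, had 6.71 in Rosa26-Foxm1 and 7.59 in WT lung (-0.18).

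Below the floor on both arrays were 13 members, for which no difference is given. They include the cartilage chains Col2a1, Col9a1, Col9a2, Col9a3, Col10a1, Col11a1 and Col11a2. Of 8 chondrocyte markers, 7 were likewise below the floor on both arrays, aggrecan (Acan) and Sox9 among them. The 1 measured marker was chondroadherin (Chad), with 31.4 in Rosa26-Foxm1 and 31.6 in WT lung. The others below the floor were Col5a3, Col6a6, Col19a1, Col25a1, Col26a1 and P4ha3. A further 11 genes of the RefSeq table whose symbols fit the same pattern, such as Col6a3, Col12a1 and P4ha1, could not be followed. They had no probe of their own in the platform annotation.

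Genes of the collagen pathway outside the member list were counted in the same way. Of 16 measured genes of later processing and crosslinking, 3 were at least 1.5-fold lower (18.8%, beside 8.45% of all measured genes) and none higher, with a median of -0.19, or -0.03 with a 75th percentile floor. Lysyl oxidase (Lox), which starts crosslinking, had 14.7 in Rosa26-Foxm1 and 26.8 in WT lung (1.83-fold lower). Its relative Loxl3 had 2.81 in Rosa26-Foxm1 and 5.32 in WT lung (1.90-fold lower). The prolyl 3-hydroxylase P3h2, which acts on type IV collagen, had 1.24 in Rosa26-Foxm1 and 2.31 in WT lung (1.86-fold lower), the former close to the floor. At the other end were the export factor Mia3 (0.45), the propeptide protease Tll1 (0.39) and the cyclophilin Ppib (0.31). Mia3 was dim, with 1.47 in Rosa26-Foxm1 and 1.08 in WT lung.

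Among 10 measured genes that bind or assemble fibrils, 4 were at least 1.5-fold lower and none higher, with a median of -0.24. Of all measured genes, 8.45% were as low and 7.08% as high. Tenascin X (Tnxb) was 1.82-fold lower, biglycan (Bgn) 1.78-fold and periostin (Postn) 1.76-fold, whereas lumican (Lum, 0.52) and fibromodulin (Fmod, 0.20) were above 0 and decorin (Dcn) was at -0.05. The 4 measured collagen receptors were all below 0, between Cd36 at -0.41 and Lair1 at -0.25, with a median of -0.32 and none past 1.5-fold.

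Collagen-degrading genes showed both directions. Their median was -0.09 over 10 measured genes, but -0.03 with median scaling and 0.06 with no floor. Of the 10, 2 were at least 1.5-fold higher and 1 lower, beside 7.08% and 8.45% of all measured genes. Cathepsin K (Ctsk), the collagenolytic protease of osteoclasts that macrophages also make, had 75.4 in Rosa26-Foxm1 and 15.5 in WT lung, 4.86-fold higher. Cathepsin L (Ctsl) had 192 in Rosa26-Foxm1 and 116 in WT lung, 1.65-fold higher, and the collagenase Mmp13 was at least 1.43-fold higher, with WT below the floor. The gelatinase Mmp9, a protease of neutrophils, was 1.52-fold lower, the neutrophil collagenase Mmp8 was at -0.55 and the prolyl endopeptidase Prep at -0.31.

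**Figure D4:**
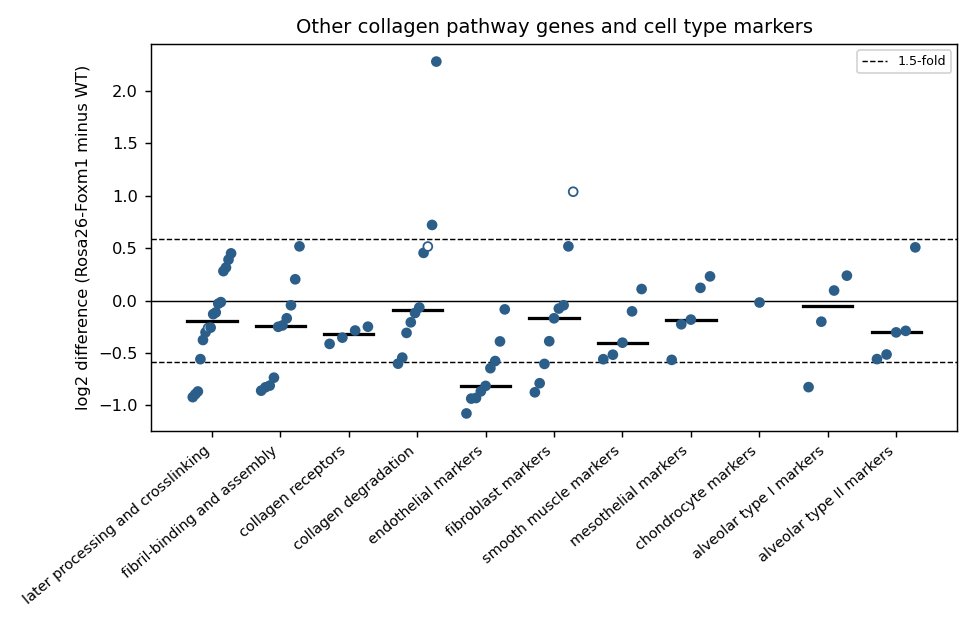
Log2 difference (Rosa26-Foxm1 minus WT, vertical axis) of the measured genes of 4 collagen pathway lists and 7 cell type marker lists, with bars for list medians, open circles for genes below the floor on 1 array and dashed lines at 1.5-fold. Endothelial markers have a median of -0.82, and Ctsk stands alone at 2.28 among the degrading genes.

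Markers of the cells that make collagen were counted beside the chains. All 9 endothelial markers were below 0, 6 of them at least 1.5-fold, beside 56.0% and 8.45% of all measured genes. Their median was -0.82 (-0.55 with median scaling), and their summed intensity was 1405 in Rosa26-Foxm1 and 2258 in WT lung. Fibroblast markers had a median of -0.17 over 9 genes (-0.08 with median scaling) and summed to 830 in Rosa26-Foxm1 and 1011 in WT lung. Of these, 3 were at least 1.5-fold lower (Pdgfra, Pdgfrb and Tcf21) and 1 higher (Thy1, also a T cell gene), beside 8.45% and 7.08% of all measured genes. Thy1 was below the floor in WT lung and counts as measured through the Rosa26-Foxm1 array alone, which fixes its direction. Smooth muscle markers had a median of -0.40 over 5 measured of 6 (-0.10 with a 75th percentile floor), none past 1.5-fold, and a sum of 262 in Rosa26-Foxm1 and 291 in WT lung. Mesothelial markers had a median of -0.18 over 5 genes, none past 1.5-fold, with sums of 155 in Rosa26-Foxm1 and 201 in WT lung. For alveolar type I cells the 4 measured markers had a median of -0.05, which was 0.16 with median scaling and 0.03 with loess scaling, with Cav1 at -0.83, which endothelium also expresses, and sums of 838 in Rosa26-Foxm1 and 976 in WT lung. For alveolar type II markers the median was -0.30 over 5 genes (-0.50 with loess scaling), none past 1.5-fold, with sums of 4292 in Rosa26-Foxm1 and 4569 in WT lung. The part of these cell types in the collagen values was not tested.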

How the data were processed

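Mouse lung RNA was measured on 2 one-colour arrays, 1 for Rosa26-Foxm1 and 1 for WT mice. Total RNA, per the labels' protocols, was cleaned on columns with DNase and labelled with digoxigenin for chemiluminescent detection. The authors deposited linear intensities, 1 per probe and array, already scaled to a median of 1.00 on each (range 0.0510 to 2268 in Rosa26-Foxm1 and 0.0294 to 2820 in WT lung). How background was corrected and arrays normalised is not stated in the labels used here, and precision is limited by the number of arrays.

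Of 33012 probes, 14411 had 1 gene in the platform annotation, updated by gene ID to RefSeq symbols (13832 of 13840 genes matched). Intensities were quantile normalised, floored at the 50th percentile and taken to log2, and the probe with the highest mean stood for its gene (numpy 2.4.6, pandas 2.3.3). A fold against a floored value is a lower bound. Members at least 1.5-fold apart were counted, with no p-value. All measured members were named, with up to 3 at each end of each list outside the rule. Members and lists were chosen with earlier results of these data known. Alternatives were median scaling, deposited values, loess (span 0.3, statsmodels 0.14.6), a lower (25th percentile), a higher (75th) and no floor, other probe choices, a loess correction for gene length, 2-fold, and other list memberships. Counts over genes above the floor on both arrays and by class of level were added after the values were seen. The calculation was tested on simulated data.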

Additional observations from a re-analysis of the deposited data

How the results depend on the processing

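Of 263 values of single members under the alternatives, 259 moved by no more than the probe SD, and none of the 5 members past 1.5-fold changed sign. Many of these values could not move, so the count is no measure of stability. No member had 2 measured probes, so other probe choices changed none, and other floors changed the value of Col4a3, Col17a1 and Bmp1 only. The median of all measured genes stayed between -0.06 and -0.03. Members at least 1.5-fold lower numbered 5 of 30, beside 8.45% of all measured genes. With loess scaling 3 of 30 were left (Col4a2, Col4a3 and Col13a1), beside 7.65% of all genes. After gene length correction 2 of 30 were left (Col4a2 and Col4a3), beside 7.78%. The floor at the 25th percentile gave 9 of 40, beside 12.4%, and no floor 9 of 43, beside 14.4%. At 2-fold 1 of 30 remained, beside 1.51%. Members at least 1.5-fold higher numbered 0 of 30, beside 7.08%. There was 1 of 40 with the floor at the 25th percentile (10.9% of all genes) and 2 of 43 with no floor (13.2%). The lower floors admit more dim genes. The type IV median of -0.37 was -0.60 with a 75th percentile floor (3 genes left), -0.21 after gene length correction and -0.10 with the multiplexins. The fibrillar minus type IV difference of 0.12 was -0.14 with the multiplexins, and in the other settings between 0.02 (gene length correction) and 0.36 (75th percentile floor). Leaving out Col4a3 alone also reversed the ordering, as given above. The fibrillar median was between -0.24 and -0.18, that of processing genes between -0.23 and -0.14, and that of all chains between -0.33 and -0.18. The medians of alveolar type I cell markers and of collagen-degrading genes changed sign between settings, as given above. The cause of these movements was not tested. Leaving out a replicate was not run, since each group has 1 array. No paired analysis was possible because each genotype has a single array and the labels give no replicate numbers. Single probes, pooled RNA and the floor limit what can be said of Col4a3, Col7a1, Col15a1 and Col17a1.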
